A study of Drosophila melanogaster with 2 samples.

Results

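The 7 genes described here are Mhc, sls, Msp300, bru1, kon, Pax and Itgbn. Mhc and sls encode parts of the contractile apparatus of muscle, Msp300 a protein that ties muscle nuclei to the cytoskeleton. A factor that splices muscle transcripts is encoded by bru1. kon encodes a protein of muscle attachment, Pax an adaptor at integrin adhesions and Itgbn an integrin subunit. The 7 genes were chosen by name. All 7 were found on 2 stretches of the genome of Drosophila melanogaster, out of 5237 features on those stretches and 23932 in the whole table. Hindguts of mature adults, kept for 4 days at 18 °C after emergence, were compared with hindguts of young adults, dissected as soon as they had emerged. Animals of both ages had the genotype bynGal4, a Gal4 driver line named for the hindgut gene brachyenteron, and had been reared at 25 °C; the labels give no other transgene. For each age 100 to 150 guts were pooled, with 3 replicates, so age and the temperature of adult life changed together and cannot be told apart.

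The hindgut of the fly is an epithelial tube wrapped in visceral muscle, striated fibres whose contractions move its contents along. In such fibres, myosin thick filaments slide along actin thin filaments, and titin-like proteins anchor the filaments at the Z-disc. Integrins, transmembrane receptors for the extracellular matrix, fasten the fibres to the basement membrane, and adaptor proteins such as paxillin assemble on their inner side.

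The labels name ileal cells of the adult hindgut, but hindguts were dissected and no sorting of cells is named, so RNA of all cell types of the organ is reported together. Values came from the authors' deposited table, which gives for each feature a mean of normalized counts over the libraries, a log2 fold change of young over mature with its standard error (SE), and a Wald test. A positive log2 value is therefore higher in young guts and a negative value higher in mature guts. Values of single libraries were not analysed here, so the error of each gene is its standard error and not a spread that could be read sample by sample. Gene names fitted the counts only on arm 2L up to position 22247875 and on arm 3L up to position 5149852 of the BDGP6 genome build, where all 19 ribosomal protein genes had means of at least 28246 per the authors' deposited table. The summed mean of the whole table was 2.94e+07, of which these stretches held 41.1%. Mef2, Mlc2, Tm2, Prm and Mp20, other markers by which muscle could be checked, lie outside the stretches and their values were not used.

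At an adjusted p under 0.05, kon and Msp300 were higher in mature guts, Mhc, Pax and sls were lower in mature than in young guts, and bru1 and Itgbn did not pass. On these stretches 40.3% of the 2604 tested features passed, 19.7% as higher in mature and 20.7% as higher in young, and 31.7% did over the whole table. Among the 1116 features with a mean of at least 1000, which all 7 genes reached, 58.8% passed, so 5 of 7 is close to what is usual at this abundance. The median log2 change of the 7 genes was 0.13, against -0.0070 over all tested features of the stretches. The amount of muscle per gut was not measured, and fewer muscle cells cannot be told apart from less RNA per cell.

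**Figure D1:**
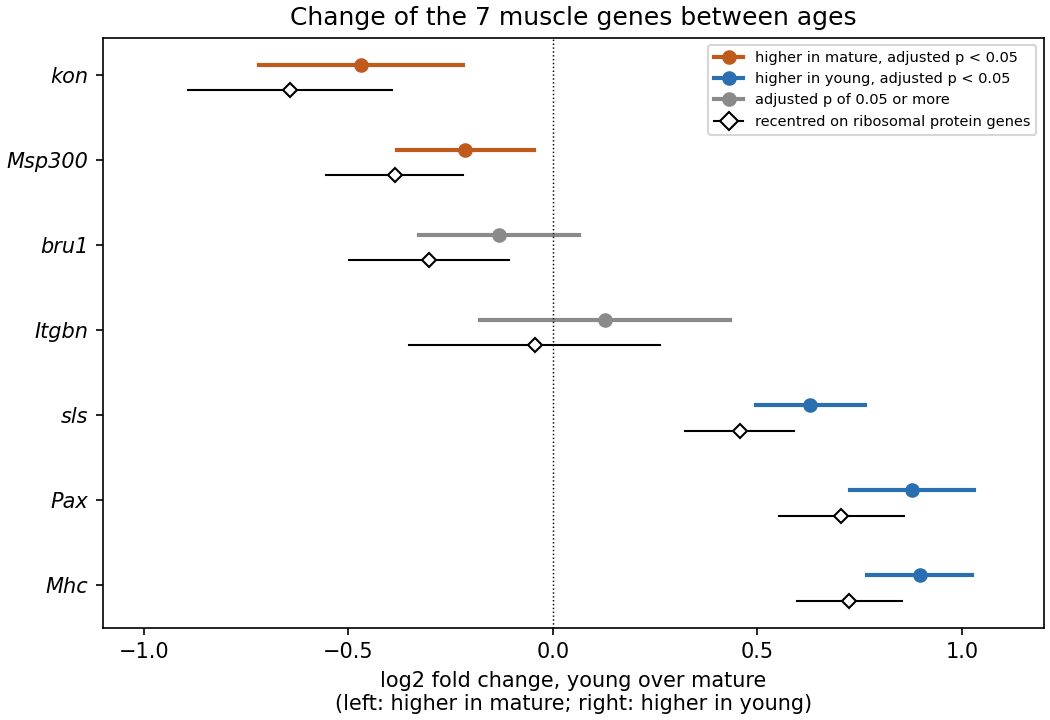
Log2 fold change of young over mature guts (x axis, negative values higher in mature) for each of the 7 genes, with bars for the 95% interval. Filled circles are the authors' deposited values and open diamonds the same values recentred on ribosomal protein genes; Mhc, Pax and sls lie to the right of 0 under both, kon and Msp300 to the left, and the interval of bru1 leaves 0 only after recentring.

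The changes of the 7 genes were moderate in size. A Wald test against a 1.5-fold change, passed by 9.6% of the tested features of the stretches, was passed by Mhc (adjusted p = 5.75e-05) and Pax (adjusted p = 0.00325) and by none of the other 5. Centring mattered for the genes near 0. The ribosomal protein genes had a median log2 change of 0.17, and with that value taken as 0 the calls on the stretches became 808 higher in mature and 412 higher in young, or 46.9% of those tested, instead of 512 and 538. The 7 genes then split into 3 higher in mature and 3 higher in young, because bru1 (log2 -0.30, adjusted p = 0.00849) joined kon and Msp300. Other call rules passed 32.4% of the tested features of the stretches at an adjusted p under 0.01, and 27.9% of the 3606 features with a p when no filter on low means was used.

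Before length was taken into account, the 7 genes spanned a wide range of read numbers. Mhc had a mean of 428275 normalized counts per the authors' deposited table, the second highest (rank 2) of the 2604 tested features of the stretches and 1.46% of the summed mean of the whole table. Msp300 followed at 136873 (rank 8) and sls at 55993 (rank 39) per the authors' deposited table. Pax had a mean of 28833.5 and bru1 one of 11704.5 per the authors' deposited table. The lowest were kon at 1244 and Itgbn at 1016 per the authors' deposited table, ranks 1023 and 1111. Together the 7 genes made up 2.26% of the summed mean.

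Per length the order changed, since Msp300 and sls have the greatest length of annotated exons among the 7 genes. Annotated exons cover 69810 bases in Msp300 and 58996 in sls, against 9058 in Mhc and 3340 in Itgbn. Per kilobase of annotated exon, Mhc stood at 47281 normalized counts, 6.89 times Pax at 6867. Next came Msp300 at 1961, bru1 at 1502 and sls at 949 normalized counts per kilobase. Itgbn, at 304, and kon, at 150, were again lowest on the scale per kilobase. These lengths join the exons of all isoforms, so genes whose short isoforms prevail in the gut are placed too low on this scale.

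**Figure D2:**
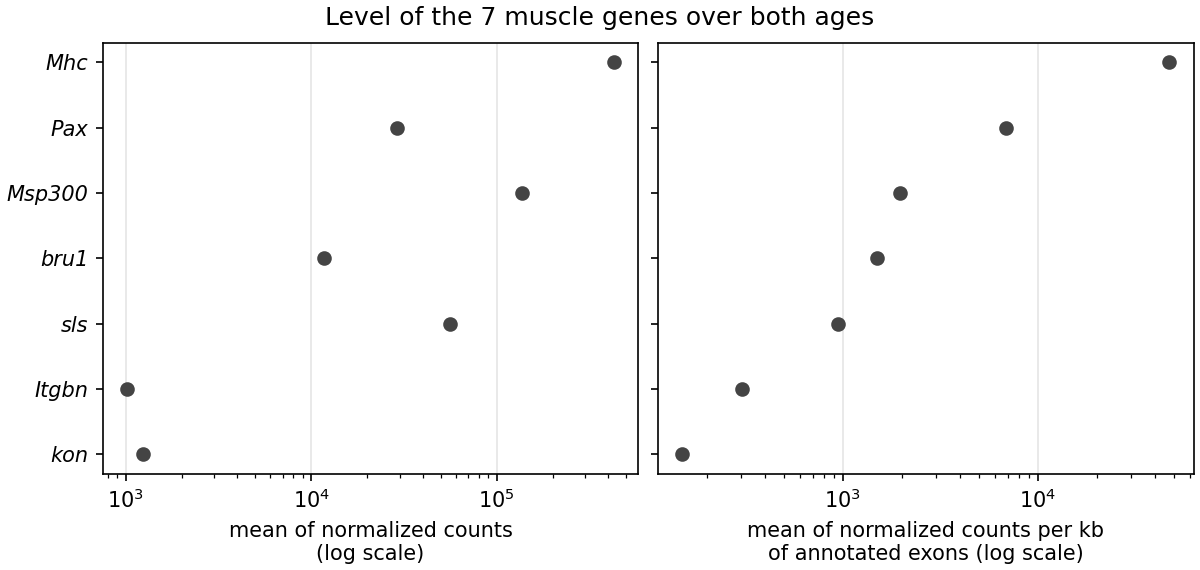
Mean of normalized counts over the libraries of both ages (left, log scale) and the same per kilobase of annotated exon (right, log scale) for each of the 7 genes, 1 point per gene. Mhc leads on both scales, while Msp300 and sls drop below Pax once length is taken into account.

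Of the contractile genes, Mhc encodes the muscle myosin heavy chain, the motor of the thick filament. It lies on 2L from 16766566 to 16788766, with 21 annotated transcripts from 32 separate exon blocks that encode proteins of 1936 to 1962 residues, and no other annotated feature overlaps it. Mhc was 1.86-fold lower in mature than in young guts, a log2 change of 0.90 ± 0.066 (SE, adjusted p = 1.38e-40) per the authors' deposited table. The 95% interval of that fold ran from 1.70 to 2.04. Among tested features of the stretches, 10.5% had a change this far in the same direction.

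The gene sls encodes sallimus, the titin-like protein that links thick filaments to the Z-disc and sets the elasticity of the sarcomere. It lies on 3L from 2039681 to 2115611, and its 13 annotated transcripts encode proteins of 4796 to 18468 residues. sls was 1.55-fold lower in mature than in young guts, a log2 change of 0.63 ± 0.068 (SE, adjusted p = 5.78e-19) per the authors' deposited table. Its interval, 0.50 to 0.76 in log2, lay just below that of Mhc, 0.77 to 1.03, so the intervals of these sarcomere genes did not overlap. Inside an intron of sls lies an annotated copy of the copia transposable element on the same strand, which had a mean of 1995 and a log2 change of -0.59 per the authors' deposited table, opposite in sign to sls. Whether those reads came from this copy or from other copies of the element was not tested.

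Besides Mhc and sls, the list of sarcomere genes had TpnC25D and Chd64 on the stretches, 4 of 36 listed genes in all, and the median log2 change of the 4 was 0.76. None of the 4 was higher in mature guts by DESeq2's adjusted test, or at an unadjusted p under 0.05 (0 genes), 3 were higher in young and 1 did not pass. Of the 1116 features with a mean of at least 1000, which all 4 reached, 320 were higher in mature and 336 in young. A difference of the 4 genes from that background was not tested. TpnC25D, a troponin C, the calcium sensor of the thin filament, changed most, 4.18-fold lower in mature than in young guts (log2 2.06, adjusted p = 5.66e-46) per the authors' deposited table, and it stands in the authors' own list of young features. Its mean was 1101 per the authors' deposited table, and it shares 54 exonic bases with the more abundant gene tkv on the other strand. Chd64, a calponin-like actin-binding protein, had a mean of 50552 and a log2 change of -0.0066 (adjusted p = 0.963) per the authors' deposited table. Its 95% interval ran from -0.15 to 0.14, which does not reach the changes of the 3 other sarcomere genes; recentred, it was higher in mature (log2 -0.18, adjusted p = 0.0426).

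Msp300 encodes a nesprin, a giant protein of the outer nuclear membrane that ties muscle nuclei to the cytoskeleton. It lies on 2L from 5100877 to 5207002, with 11 annotated transcripts whose proteins run from 407 to 13540 residues. Msp300 was 1.16-fold higher in mature than in young guts, a log2 change of -0.21 ± 0.085 (SE, adjusted p = 0.0396) per the authors' deposited table. The fold had a 95% interval of 1.03 to 1.30, and 34.3% of tested features of the stretches lay this far in the same direction. The call was lost without the filter on low means (adjusted p = 0.0566). Msp300 and Mhc thus moved apart, their log2 changes being 1.11 from each other with intervals that did not overlap.

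Of the 4 genes for nuclear positioning on the stretches, 2 were higher in mature, 1 was higher in young and 1 did not pass, with a median log2 change of 0.05. Over all tested features of the stretches, 19.7% were higher in mature and 20.7% in young. The 4 genes all had means of at least 1000, and of the 1116 features at that level 58.8% passed, 320 as higher in mature and 336 as higher in young. The partner of Msp300 in the first direction was ens, which encodes ensconsin, a microtubule-binding protein that aids kinesin, with a log2 change of -0.22 (adjusted p = 0.00655) per the authors' deposited table. The other way went klar, which encodes Klarsicht, like Msp300 a protein with a KASH domain at the nuclear envelope. It was 1.37-fold lower in mature than in young guts (log2 0.46, adjusted p = 1.05e-08) per the authors' deposited table. Lam, the B-type lamin under the inner membrane, had a log2 change of 0.31 (adjusted p = 0.187) per the authors' deposited table.

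bru1 encodes Bruno 1, an RNA-binding protein of the CELF family, known as a splicing factor of the fibrillar flight muscles and as a translational repressor in the female germline. It lies on 2L from 12175004 to 12313438, mostly as introns, since its exons cover 7791 of 138435 bases. bru1 had a log2 change of -0.13 ± 0.0997 (SE, adjusted p = 0.359) per the authors' deposited table, with a 95% interval of -0.33 to 0.06. The intervals of Mhc, Pax and sls lay outside it. Within an intron of bru1, on the other strand, lies atilla, with 3.18 times its mean and a log2 change of -0.66 (adjusted p = 4.10e-15) per the authors' deposited table; the genes share no exonic base.

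The neighbouring paralog bru2 begins 30.8 kb further along the arm and gave a different value. It was 1.79-fold lower in mature than in young guts (log2 0.84 ± 0.085 SE, adjusted p = 2.77e-21) per the authors' deposited table. The interval of bru2, 0.67 to 1.01, did not overlap that of bru1, and their log2 changes were 0.97 apart. These 2 genes were the part of the 6 listed muscle splicing factors that lay on the stretches, with a median log2 change of 0.35.

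Since bru1 is also known from the ovary and from flight muscle, markers of those tissues were read beside it. Ovary and germline markers with an adjusted p numbered 8, none of which passed DESeq2's adjusted test, with a median log2 change of -0.56. Among all tested features of the stretches 40.3% passed, 19.7% as higher in mature and 20.7% as higher in young. At an unadjusted p under 0.05, 2 of the markers were higher in mature and 0 higher in young. Standard errors ran from 0.13 (grk) to 0.51 (aub), so not passing does not show a lack of change in these markers. Their means ran up to 1033, that of grk, and summed to 1744 normalized counts, with BicC listed at 0, per the authors' deposited table. BicC shares 94.8% of its exons with CG45084 on the same strand, also listed at 0, so its count is uncertain, and grk shares 12.3% of its exons with Akap200 on the other strand, which had a mean of 7261 per the authors' deposited table. The germline genes vas, aub and piwi had means of 67.6, 43.1 and 96.4 per the authors' deposited table. Their log2 changes were -0.99, -1.01 and -0.47 (adjusted p = 0.114, 0.122 and 0.494) per the authors' deposited table. Vm26Aa, Vm26Ab, Vm34Ca and Vm32E, genes of the eggshell, had means of 215, 113, 165 and 11.3 per the authors' deposited table. Their log2 changes were -0.64, -0.74, -0.42 and -0.20 per the authors' deposited table. After recentring, vas was higher in mature (log2 -1.17, adjusted p = 0.0489). On the other strand, aub shares 79 exonic bases with TTLL4A, which had a mean of 1138 and a log2 change of -0.83 per the authors' deposited table. Likewise piwi shares 191 with SCAR, which had a mean of 5078 and a log2 change of -0.09 per the authors' deposited table. The part of such reads in the counts of aub and piwi was not tested. salm, which selects the fibrillar flight muscle fate and is also active elsewhere, had a mean of 667 and a log2 change of 0.21 (adjusted p = 0.333) per the authors' deposited table. The other flight muscle markers lie outside the stretches, and the part of either tissue in the values of bru1 was not tested.

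**Figure D3:**
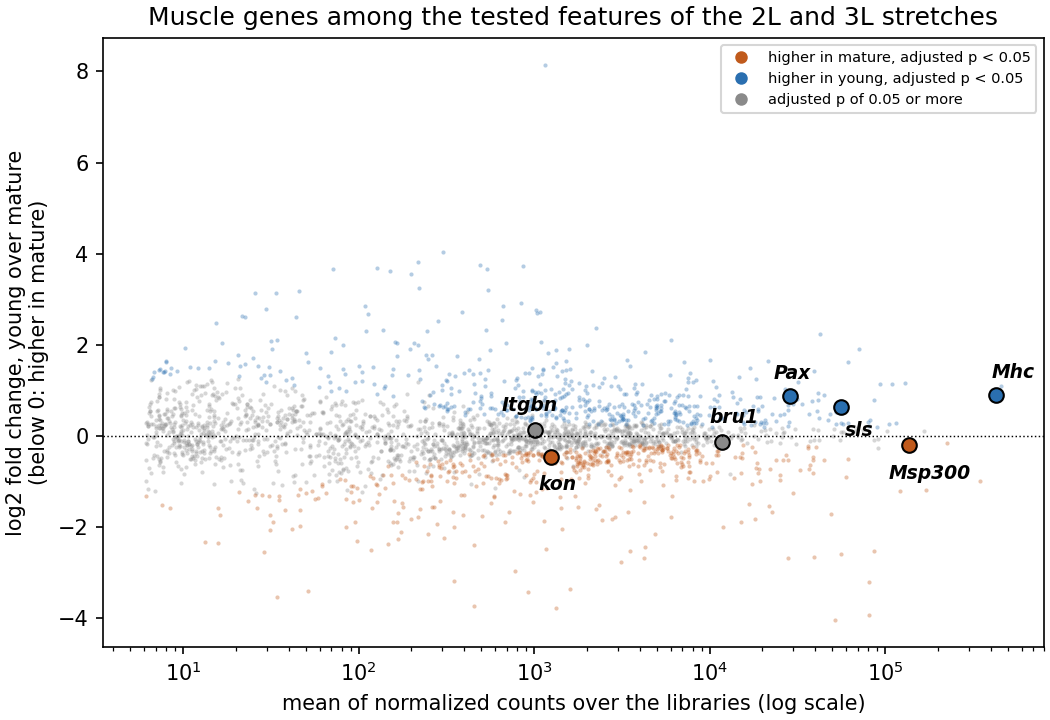
Log2 fold change of young over mature guts (y axis, negative values higher in mature) against the mean of normalized counts (x axis, log scale) for the 2604 tested features of the 2L and 3L stretches, with the 7 genes outlined and named. Mhc lies at the far right at 0.90, and Msp300, second of the 7 in mean, lies just under 0.

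Among the attachment genes, kon encodes kon-tiki, a transmembrane protein at the tips of growing muscles that is needed for them to recognise and hold their attachment sites in the embryo. It lies on 2L from 18487747 to 18503978, and its 3 annotated transcripts encode the same length of 2381 residues. kon was 1.38-fold higher in mature than in young guts, a log2 change of -0.47 ± 0.127 (SE, adjusted p = 0.00120) per the authors' deposited table. The fold had a 95% interval of 1.16 to 1.65. The end of kon shares 275 exonic bases, 3.32% of its exons, with grnd on the other strand, which had a mean of 3607 and a log2 change of -0.23 (adjusted p = 0.0306) per the authors' deposited table. Since the strand setting of the counting is not given, reads of that overlap cannot be assigned.

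Pax encodes paxillin, the adaptor that gathers signalling and cytoskeletal proteins at integrin adhesions. It lies on 2L from 19400753 to 19426596, with 9 annotated transcripts for proteins of 197 to 581 residues. Pax was 1.84-fold lower in mature than in young guts, a log2 change of 0.88 ± 0.078 (SE, adjusted p = 5.20e-28) per the authors' deposited table. The fold had a 95% interval of 1.65 to 2.04. That interval overlapped those of Mhc and sls, and those of no other of the 7 genes. Lectin genes sit in an intron of Pax on the other strand and share no exonic base with it. Among them, lectin-37Db had 10.02% of the mean of Pax and a log2 change of 1.28 (adjusted p = 2.91e-14) per the authors' deposited table. For lectin-37Da these were 3.39% and -1.47 (adjusted p = 5.19e-11). Alp12 and CG13085, also on the other strand, each share 299 exonic bases with Pax, 7.12% of its exons. Their means were 2353 and 117 per the authors' deposited table. The part of such reads in the count of Pax was not tested.

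Itgbn encodes the beta nu integrin subunit, which is known from the midgut and from phagocytic hemocytes of the fly. It lies on 2L from 21053033 to 21058044, and both of its annotated transcripts encode 799 residues. Itgbn had a log2 change of 0.13 ± 0.156 (SE, adjusted p = 0.607) per the authors' deposited table, and recentring turned the sign (log2 -0.04). Its 95% interval, -0.18 to 0.43, is the widest of the 7 genes and goes with the lowest mean. On the other strand CG9265 covers 339 exonic bases, 10.1% of the exons of Itgbn, and had 10.4 times its mean with a log2 change of -0.20 (adjusted p = 0.179) per the authors' deposited table. The part of these reads in the count of Itgbn was not tested.

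Integrin adhesion genes as a list went both ways. Of the 6 on the stretches, 2 were higher in mature, 2 were higher in young and 2 did not pass, with a median log2 change of 0.13. Among all tested features there, 19.7% were higher in mature and 20.7% in young. All 6 had means of at least 1000, and of the 1116 features at that level 320 were higher in mature and 336 in young, 58.8% in all. Src64B, a Src family tyrosine kinase, was 2.54-fold higher in mature than in young guts (log2 -1.34, adjusted p = 2.98e-15) per the authors' deposited table. The scaffold gene p130CAS went the same way, at -0.28 in log2 (adjusted p = 0.0230) per the authors' deposited table. With Pax went ics, the fly form of the integrin-pathway protein RSU1, 1.91-fold lower in mature than in young guts (log2 0.93, adjusted p = 9.90e-23) per the authors' deposited table. Fit1, a kindlin that activates integrins, had a log2 change of 0.14 (adjusted p = 0.125) per the authors' deposited table, or -0.03 recentred.

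The list of attachment guidance and matrix genes held 10 genes on the stretches, of which 4 were higher in mature, 4 were higher in young and 2 did not pass, with a median log2 change of 0.61. All tested features of the stretches gave 19.7% higher in mature and 20.7% higher in young. Higher in mature with kon were Tsp, the thrombospondin that binds integrins at tendon cells (log2 -0.88, adjusted p = 5.30e-04), and dnt, a receptor of the Ryk family (log2 -0.78, adjusted p = 0.0180), both per the authors' deposited table. The integrin ligand Tig was 15.3-fold higher in mature than in young guts per the authors' deposited table. Lower in mature were the laminin genes wb and LanB1, at log2 changes of 0.94 and 0.84 per the authors' deposited table. The guidance receptor gene robo2 (log2 0.80, adjusted p = 1.41e-08) and tutl, an immunoglobulin superfamily gene at a mean of 69.5 (log2 0.97, adjusted p = 0.0364), were lower too per the authors' deposited table. The tutl call was lost after recentring (adjusted p = 0.0879) and without the filter on low means (adjusted p = 0.0521). slow, whose product acts with thrombospondin at tendons, and drl, another Ryk receptor gene, had log2 changes of 0.71 and 0.51 (adjusted p = 0.0542 and 0.0624) per the authors' deposited table.

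**Figure D4:**
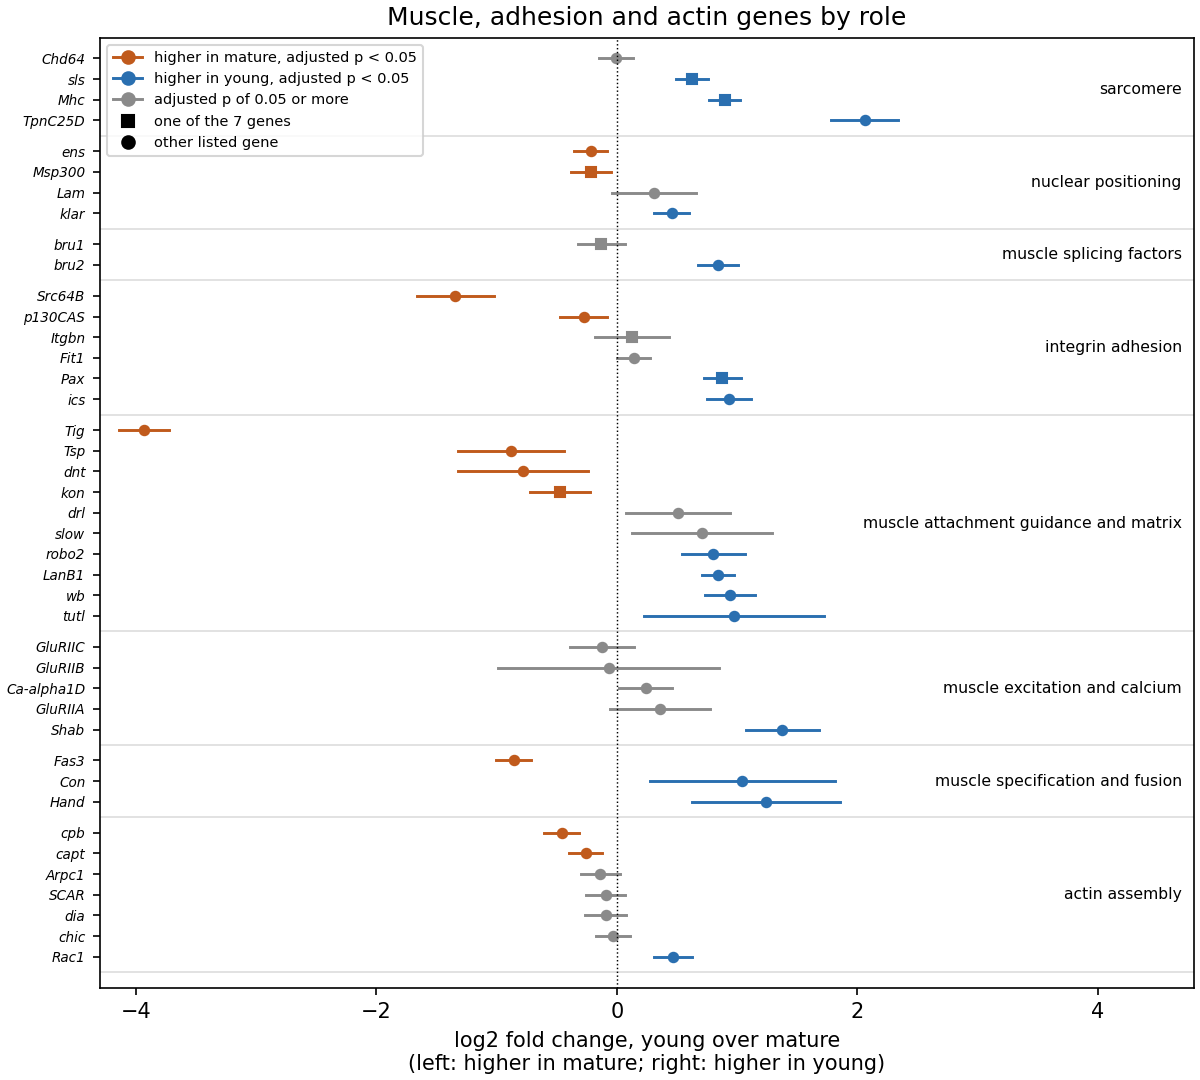
Log2 fold change of young over mature guts (x axis, negative values higher in mature) with 95% intervals for the tested genes of 8 lists on the 2L and 3L stretches, the 7 genes as squares and the others as circles. Calls in both directions stand within the nuclear positioning, integrin adhesion, attachment, specification and fusion, and actin assembly lists, while in the sarcomere list 3 of 4 genes lie right of 0 and Chd64 lies on it.

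Among genes of muscle excitation and calcium, 4 of 5 with an adjusted p did not pass, as did 1554 of the 2604 tested features of the stretches. None was higher in mature by DESeq2's adjusted test, or at an unadjusted p under 0.05 (0 genes), and 1 was higher in young, with a median log2 change of 0.24. That was Shab, a voltage-gated potassium channel also found in neurons, 2.60-fold lower in mature than in young guts (log2 1.38, adjusted p = 9.92e-18) per the authors' deposited table. Ca-alpha1D, the L-type calcium channel of muscle, had a log2 change of 0.24 (adjusted p = 0.0895) per the authors' deposited table. The glutamate receptor genes GluRIIA, GluRIIB and GluRIIC had log2 changes of 0.36, -0.07 and -0.12 per the authors' deposited table, none past the threshold. SclA was listed at 0 and SclB at 0.18 per the authors' deposited table; these sarcolamban genes, whose peptides regulate the calcium pump, share the same exons, so their counts are uncertain.

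Of the muscle specification and fusion list, 1 of 3 genes was higher in mature and 2 were higher in young, with a median log2 change of 1.04. The shares of all tested features of the stretches were 19.7% higher in mature and 20.7% higher in young. Fas3, a homophilic adhesion protein of the embryonic visceral muscle founders and also of epithelial junctions, had a mean of 25296 and was 1.81-fold higher in mature than in young guts (adjusted p = 1.82e-29) per the authors' deposited table. Hand, a transcription factor of heart and visceral muscle, was 2.36-fold lower in mature than in young guts (log2 1.24, adjusted p = 4.56e-04) at a mean of 223 per the authors' deposited table. Con, a cell surface protein of embryonic muscle subsets, had a log2 change of 1.04 (adjusted p = 0.0276) at a mean of 77.7 per the authors' deposited table, and its call was lost after recentring (adjusted p = 0.0679).

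Genes of actin assembly, which all cells use, had a median log2 change of -0.09. Of 7, the capping protein gene cpb (log2 -0.46, adjusted p = 8.30e-09) and capt (-0.26, adjusted p = 0.00151), which recycles actin monomers, were higher in mature per the authors' deposited table. The GTPase gene Rac1 was lower in mature than in young guts (log2 0.47, adjusted p = 4.55e-08) per the authors' deposited table. chic, dia, SCAR and Arpc1, which encode profilin, a formin and parts of the branching machinery, had log2 changes of -0.03, -0.09, -0.09 and -0.14 per the authors' deposited table and did not pass. After recentring all 4 were higher in mature, which made 6 of the 7. The same shift raised the calls higher in mature among all 2604 tested features of the stretches from 512 to 808. Over all 8 lists, each gene was counted once and the 7 genes were set aside. Of 34 tested genes, 9 were higher in mature, 12 were higher in young and 13 did not pass, with a median log2 change of 0.19. By direction, 19.7% of all tested features of the stretches were higher in mature and 20.7% in young. Both directions together made 40.3% of all tested features of the stretches and 58.8% of those with a mean of at least 1000.

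Markers of other cells in or around the gut were read beside the 7 genes, again with 40.3% of the tested features of the stretches passing. Of 4 hemocyte markers with an adjusted p, 1 was higher in mature (crq, log2 -0.57) and 3 were higher in young, Pxn (0.32), Sr-CI (1.43) and NimC1 (1.54) per the authors' deposited table. Sr-CI and NimC1 had means of 35.7 and 26.6, and the remaining marker, He, had one of 4.40 per the authors' deposited table. Those of crq and Pxn were far higher, 8852 and 3049 per the authors' deposited table. Which cells gave the reads of crq and Pxn was not tested. On the other strand crq shares 448 exonic bases, 15.7% of its exons, with ex, which had a log2 change of -0.52 per the authors' deposited table. The Pxn call was lost after recentring (adjusted p = 0.353). The neuronal gene nSyb was 3.75-fold higher in mature than in young guts at a mean of 158, Syt1 had a log2 change of 0.98 (adjusted p = 0.0739), and VGlut had a mean of 2.28 per the authors' deposited table. The tracheal gene trh (log2 0.58, adjusted p = 0.0254) and the fat body gene Lsp1beta (2.84, adjusted p = 5.34e-11, mean 109) were lower in mature than in young guts per the authors' deposited table, and the trh call was lost after recentring (adjusted p = 0.131). The part of these cells in the values of Mhc, sls, Pax, Itgbn and the others was not tested.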

How the data were processed

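Total RNA of mature and young hindguts was extracted with Trizol and sequenced as read pairs, per the labels' protocols. The submitters' processing notes name HISAT2, Trim Galore, DESeq2 and the build BDGP6 with no versions. Which program counted the reads, with or without strand and on which annotation, is not given in the sources used here. The labels list 2 samples, 1 for each age, that stand for 6 libraries. Nothing says how the replicates were formed, so p-values reflect differences among these libraries that may be technical.

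The authors' deposited table holds a mean, a signal never below 0 that DESeq2 defines as the average of size-factor normalized counts. Its fold change and standard error were read as log2 values, per the file headers and DESeq2's convention, young over mature. The Wald score deposited by the authors was checked to be their quotient, and the deposited p-value and adjusted p-value are those of that test. Standard errors reach no higher than 0.53, so changes of features with low means may be drawn toward 0. With no counts per library, the planned edgeR fit could not be run and the authors' test was used at an adjusted p under 0.05.

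IDs were matched to Ensembl release 115 (23851 of 23932), which gave symbols, 1-based positions and exon lengths. Intervals are 95% normal intervals from the standard errors and cover no shared error of the normalization. Members, stretches, 14 gene lists (196 symbols, 8 unmatched) and tests were chosen with earlier results of these data known. All 7 members are named, and of the lists every called gene, every uncalled gene with a mean of at least 100 and, where 3 or fewer, those below. Uncalled markers below 100 named beside them (He, VGlut, Syt1, vas, aub, piwi, Vm32E, BicC) were chosen after their values were seen. Features overlapping a member are named from 10% of its mean. The copia copy, lectin-37Da, Alp12, CG13085 and features overlapping list genes were chosen after their values were seen. With 1 contrast, likeness of patterns cannot be measured and no gene is named for it. The Wald and adjustment steps were run on changes simulated with the deposited standard errors. Such a run cannot check those errors or the authors' fit. Values were computed with scipy 1.17.1, numpy 2.4.6 and pandas 2.3.3 in Python 3.11.15 and drawn with matplotlib 3.10.9.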

Additional observations from a re-analysis of the deposited data

How the results depend on the processing

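The 6 alternatives were an adjusted p under 0.01, no filter on low means, recentring, a Wald test against a 1.5-fold change, adjustment over the stretches alone and a mean of at least 100. Mhc and Pax kept their direction and call under all 6, with adjusted p of at most 5.75e-05 and 0.00325. Calls of sls and kon were lost in the test against a 1.5-fold change alone. Genes among the 7 higher in mature numbered 2 at first, 1 at an adjusted p under 0.01, 1 with no filter on low means and 0 against a 1.5-fold change; at the first 2 of these settings it was the Msp300 call that was lost. Against a 1.5-fold change, 109 of the 2604 tested features of the stretches were higher in mature and 141 in young, 9.6% in all. Of the 41 tested genes of the 8 lists, the 7 genes included, 3 and 8 were, instead of 11 and 15. Recentring gave 808 features and 17 list genes higher in mature, and 412 features and 13 list genes higher in young. With recentring 46.9% of the tested features passed, instead of 40.3%. It also reversed the sign of Itgbn (-0.045), Fit1 (-0.032) and grk (-0.13), none of which passed before or after. Whether ribosomal protein genes were constant between the ages was not tested. The standard errors of kon and Itgbn, 0.127 and 0.156, are the largest of the 7, and their means are the lowest. Other normalizations, leaving out libraries and the replicate block were not run. No paired analysis was possible because no column gives values of single libraries.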
